A study of Homo sapiens with 6 samples.

Results

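Long intergenic RNA genes (symbols of the form LINC plus a number) and antisense RNA genes (symbols ending in -AS plus a number) were examined in 22RV1 cells treated with bruceantin (BCT). Of 26255 genes listed in each sample, 1857 carried such a symbol, and 342 of these were selected on their level, a mean of at least 1 FPKM (fragments counted for a gene, scaled to its transcript length and to the size of the library) over the 6 samples. They comprised 97 LINC genes and 245 antisense genes. 22RV1 is a human castration-resistant prostate cancer line, grown here in RPMI medium with fetal bovine serum that still held its androgens. The control group received the vehicle DMSO and the treated group 10 nM BCT, both for 24 h, with 3 samples each. The labels do not say that the 3 samples of a group came from separate cultures, so p-values measure the spread between these samples only.

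Long noncoding RNAs are transcribed, spliced and polyadenylated much like mRNAs, but most of them carry no long open reading frame. Intergenic ones have their own promoters between coding genes, whereas antisense ones are named for a gene on the opposite strand, with which they may share exons, a promoter region or only the locus. Some act on neighbouring genes in cis, others work as scaffolds or as decoys for proteins and microRNAs, and for most no function is known.

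Because the mean level chose the members, that level is given here as a description. The median of the members' mean level was 3.21 FPKM, against 12.5 FPKM for the 12729 genes that reached 1 FPKM, and 61 members reached 10 FPKM. Another 1515 rows with a matching symbol lay under the threshold, 508 of them at 0 in every sample. Just outside it were WDFY3-AS2, HLTF-AS1 and DSG2-AS1 with means of 0.983, 0.988 and 0.995 FPKM, and just inside it INTS6-AS1, RTCA-AS1 and ADNP-AS1 with 1.01, 1.02 and 1.03 FPKM. Some members passed the threshold through a single group, since 20 had a mean under 1 FPKM with DMSO and another 24 with BCT. The other 298 had a mean of at least 1 FPKM in both groups.

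The identity of the cells was checked on marker genes. The prostate epithelial markers KLK2, KLK3, HOXB13, EPCAM, KRT8 and KRT18 had a mean above 1 FPKM in both groups, whereas the summed leukocyte markers reached at most 0.351 FPKM and the endothelial ones 0.051 FPKM. Fibroblast markers summed to 1.48 to 1.62 FPKM with DMSO and 5.08 to 6.47 FPKM with BCT, nearly all of it COL1A1. The FPKM sum of a sample was 1169649 to 1572321 with DMSO and 757534 to 799838 with BCT, and the small RNA gene MIR6087 took 43.5% to 55.3% and 31.7% to 32.5% of it. Without MIR6087, the members made up 0.569% to 0.576% of the sum with DMSO and 0.562% to 0.578% with BCT. These ranges overlapped. With MIR6087 kept, the share was 0.257% to 0.322% with DMSO and 0.381% to 0.390% with BCT, without overlap. Whether the summed share of these RNAs separated the groups therefore depended on whether MIR6087 was counted. The depth behind each sample is not known, because the deposited values hold no counts and the study's methods give only an average over samples. In such bulk samples, fewer expressing cells and less RNA per cell cannot be told apart.

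To see how the noncoding RNAs responded to BCT, each gene was compared between the groups with limma on log2(FPKM + 0.1), a scale that understates the change of low genes, and called where the log2 fold change passed 0.85 in either direction with a Benjamini-Hochberg adjusted p under 0.05. With BCT, 58 members (17%) were called lower, against 17.8% of all genes tested, and 40 (11.7%) were called higher, against 13.9%. The groups did not overlap in 258 members (75.4%), compared with 85.3% of all genes tested. Among the 298 members at 1 FPKM or more in both groups, 43 were called lower (14.4%) and 26 higher (8.72%). The 17.8% and 13.9% of all genes tested are no like comparison here, because those genes were filtered on the overall mean only. Requiring the level in both groups by construction removes low genes with large changes. The median log2 fold change was -0.15 over the members and -0.04 over all genes tested. With a pseudocount of 1, which shrinks the changes of low genes more, 9.36% of the members were called lower and 8.19% higher, against 14.5% and 11% of all genes tested.

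The balance of calls depended on the scaling. Setting each sample to the same FPKM sum moved the median of all genes to 0.72 and gave 7 members lower and 135 higher, and the same scaling without MIR6087 moved it to 0.34 and gave 32 lower and 78 higher. Scaling to the median, the upper quartile or by quantiles gave 53 to 59 lower and 40 to 44 higher. All fold changes below are on the deposited scale, with fall and rise meant on that scale. All 40 members called higher kept that call under each of the 5 other scalings, and 7 members called lower did so: EP300-AS1, FOXP4-AS1, LINC00669, LINC01315, MFI2-AS1, MNX1-AS1 and PCNA-AS1. Both scalings to equal sums shifted the changes upward, which by construction keeps calls of higher and removes calls of lower. The contrast of 40 with 7 therefore does not show that rises held better than falls.

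Intergenic and antisense genes leaned to different sides of the median of all genes. Of the LINC genes, 12 were called lower (12.4%) and 15 higher (15.5%), with a median log2 fold change of 0.12. Of the antisense genes, 46 were called lower (18.8%) and 25 higher (10.2%), with a median of -0.23, and the shares over all genes tested were 17.8% and 13.9%. Under the other 5 scalings the LINC median stayed 0.12 to 0.15 above that of all genes and the antisense median 0.19 to 0.23 below it, although both medians were positive when sums were set equal, with or without MIR6087. No test of this difference was made. Replicates of these low genes scattered more than genes at large, with a median coefficient of variation of 7.82% with DMSO and 9.75% with BCT, against 4.57% and 7.01%. BCT replicate 1 was the BCT sample nearest to the DMSO samples in 75 of the 98 called members, and in 87.8% of all called genes.

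**Figure D1:**
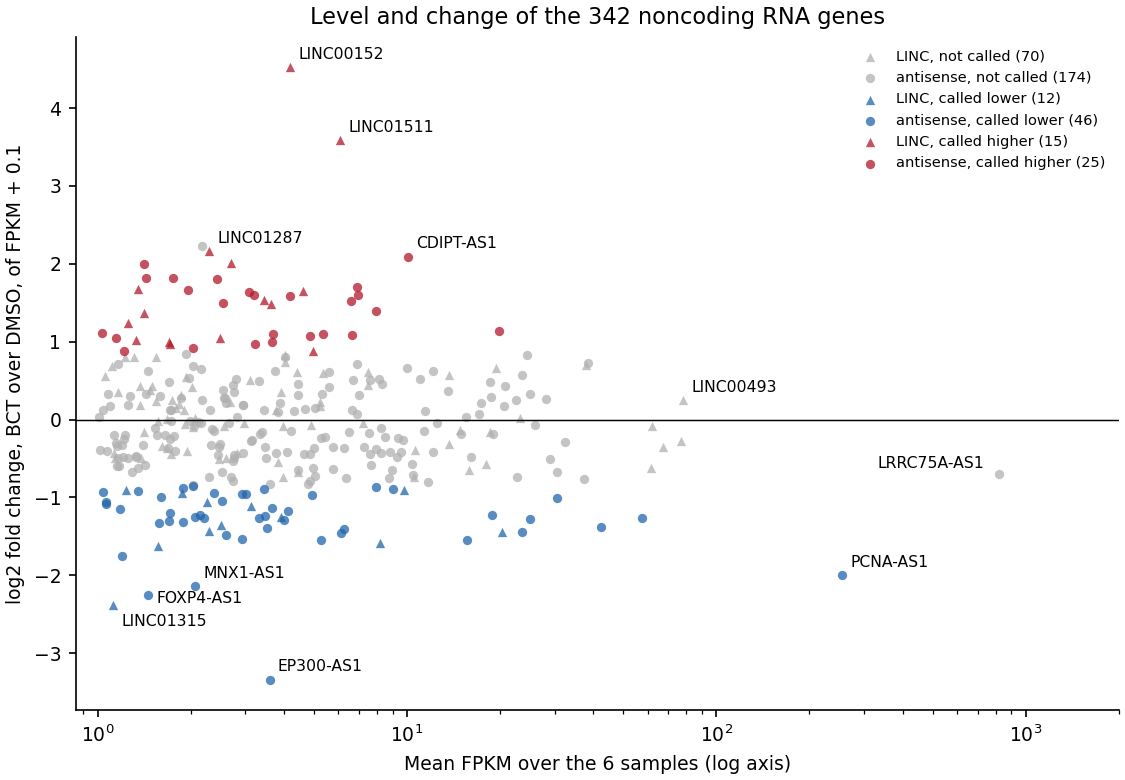
Each point is a noncoding RNA gene, with its mean FPKM over the 6 samples on a log axis and its log2 fold change of FPKM + 0.1 (BCT over DMSO) on the vertical axis. Triangles are LINC genes and circles antisense genes, with blue for the 58 called lower, red for the 40 called higher and grey for those not called. LINC00152 and LINC01511 lie highest, EP300-AS1 lowest, and PCNA-AS1 is the member called lower with the highest level.

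The greatest rise was that of LINC00152, also named CYTOR, a largely cytoplasmic RNA that has been studied for its raised level in tumors. Its FPKM was 0.231, 0.269 and 0.271 with DMSO and 7.84, 7.94 and 8.52 with BCT. All BCT samples lay far above all DMSO samples, a 31.5-fold difference of the means (log2 fold change 4.52, SE 0.12; limma, adjusted p = 1.6e-07). With a DMSO mean under 1 FPKM, LINC00152 met the level threshold through the BCT samples alone, so a difference was partly built into its selection and its p is no independent support. The same holds among the genes below for LINC01511, LINC01287, LINC01207, CARD8-AS1, BSN-AS2, MATN1-AS1 and ADNP-AS1, and, through the DMSO samples, for EP300-AS1, LINC01315, FOXP4-AS1, LINC00669, MNX1-AS1, MFI2-AS1, A2M-AS1 and TMPO-AS1. In GENCODE LINC00152 spans chr2:87754300-87936259 of GRCh37 on the plus strand and no part of its exons lies in exons of coding genes. Of the 100-base stretches of its exons, 36.8% occur in genes elsewhere too, chiefly the near-identical MIR4435-2HG, so fragments from the 2 loci cannot be fully told apart. MIR4435-2HG itself had values of 2.95, 3.78 and 3.21 FPKM in the BCT samples, and in the DMSO samples it was listed at 0 in 2 and at 0.25 FPKM in 1. Both loci therefore had low values in each DMSO sample and higher ones in each BCT sample.

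LINC01511 on chromosome 5 (chr5:1354011-1380222, minus strand) followed, with 0.882, 0.763 and 0.828 FPKM under DMSO and 8.03, 14.7 and 11.2 FPKM under BCT. The BCT samples differed among themselves by more than those of LINC00152 but none came near the DMSO range (log2 fold change 3.59, SE 0.19; limma, adjusted p = 1.3e-06). CLPTM1L, its nearest tested coding gene at 8797 bases, had 68.0 ± 1.6 FPKM with DMSO and 41.0 ± 1.9 FPKM with BCT (SD, n = 3), a log2 difference of -0.73 that was under the threshold. LINC01287 on chromosome 7 had 0.694, 0.648 and 0.997 FPKM with DMSO and 3.31, 3.72 and 4.40 FPKM with BCT, a 4.89-fold rise. LINC00174, also on chromosome 7, rose 4.30-fold from 1.01 ± 0.19 to 4.37 ± 0.73 FPKM. The coding gene whose span it overlaps, TPST1, a sulfotransferase of the Golgi, stood at 7.30 FPKM in both groups. Other LINC genes that rose 2.88-fold to 3.26-fold, named after their values were seen, were LINC00888 (2.17 to 7.06 FPKM), LINC00491 (1.72 to 5.18 FPKM) and LINC01347 (1.87 to 5.38 FPKM).

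Of antisense genes, CDIPT-AS1 rose most among those past the threshold. It begins 179 bases from the start of CDIPT, the phosphatidylinositol synthase gene, on the other strand, and GENCODE lists it as a pseudogene. Its values were 3.85, 3.15 and 4.37 FPKM with DMSO and 15.9, 17.3 and 15.9 FPKM with BCT, without overlap (log2 fold change 2.09, SE 0.11; limma, adjusted p = 1.2e-06). CDIPT itself had 80.4 ± 1.7 FPKM with DMSO and 58.8 ± 3.7 FPKM with BCT, a log2 difference of -0.45. CARD8-AS1 and BSN-AS2 also start within 1000 bases of the genes they are named for, the inflammasome sensor gene CARD8 and the presynaptic scaffold gene BSN. CARD8-AS1 went from 0.506 ± 0.106 to 2.31 ± 0.40 FPKM and BSN-AS2 from 0.580 ± 0.104 to 2.29 ± 0.28 FPKM. MATN1-AS1, opposite the cartilage matrix gene MATN1, rose 3.87-fold to 2.78 ± 0.38 FPKM. In CELSR3-AS1 a log2 fold change of 2.23 was not called (limma, adjusted p = 0.071), because DMSO replicate 3 was listed at 0 beside 1.23 and 2.11 FPKM in the other DMSO samples, and BCT samples had 1.72, 4.18 and 3.80 FPKM.

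On the other side, EP300-AS1 showed the deepest fall. It lies on chromosome 22 (chr22:41570595-41593512, minus strand), where its span overlaps the end of EP300, a histone acetyltransferase gene, with no shared exon. FPKM values of 6.71, 6.06 and 7.11 with DMSO stood against 0.710, 0.482 and 0.516 with BCT. No BCT sample came near the DMSO range, and the means differed 11.6-fold (log2 fold change -3.34, SE 0.15; limma, adjusted p = 6.6e-07). LINC01315, also on chromosome 22 (chr22:42760393-42765296, minus strand), fell from 1.94 ± 0.16 to 0.295 ± 0.076 FPKM, a 6.59-fold difference. FOXP4-AS1, beside the forkhead factor gene FOXP4, had 2.21, 2.60 and 2.52 FPKM with DMSO and 0.694, 0.216 and 0.507 FPKM with BCT. FOXP4 had 6.67 ± 0.20 and 5.52 ± 0.49 FPKM and was not called. LINC00669 on chromosome 18 fell 3.37-fold to 0.716 ± 0.010 FPKM, LINC01003 on chromosome 7 fell from 12.3 ± 0.2 to 4.10 ± 0.87 FPKM, and DPP10-AS1, inside the locus of the potassium channel subunit gene DPP10, fell 2.95-fold from 23.3 ± 0.5 to 7.90 ± 0.31 FPKM.

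**Figure D2:**
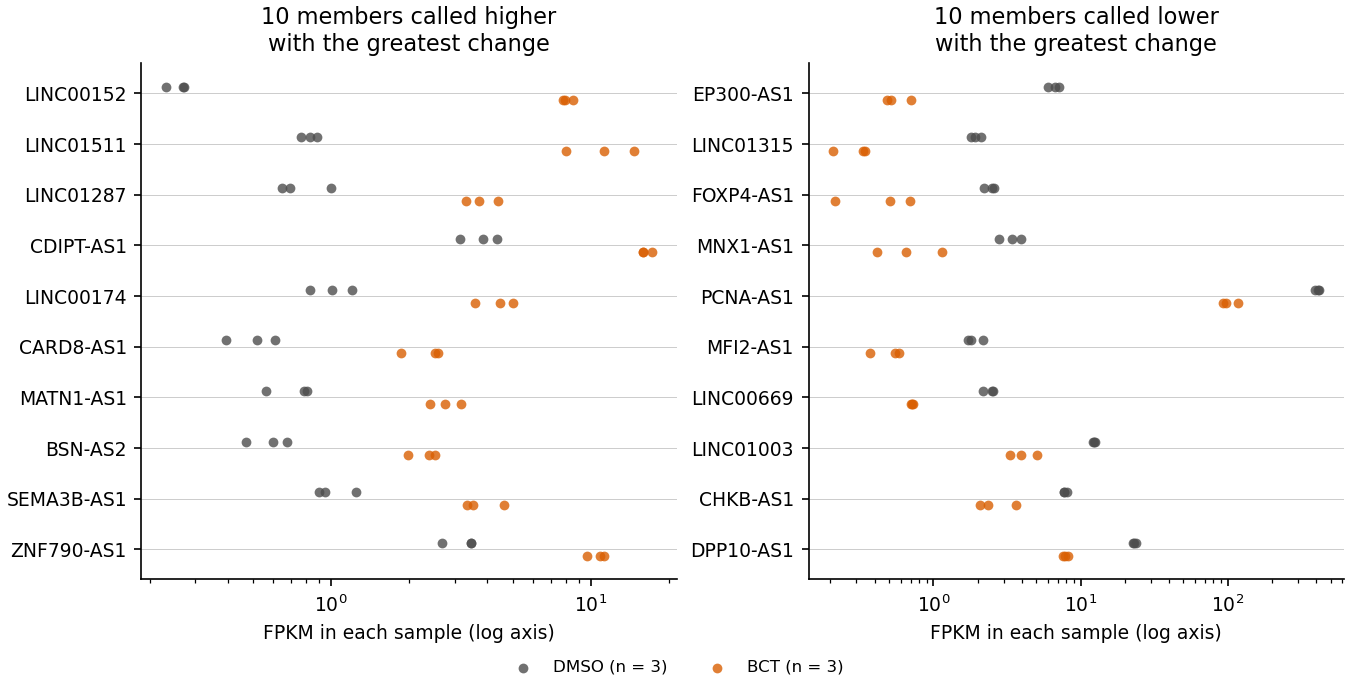
FPKM of each sample on a log axis for the 10 members called higher (left) and the 10 called lower (right) with the greatest log2 fold change, grey for DMSO and orange for BCT (n = 3 each). The 20 genes were chosen only among called members whose groups do not overlap. Apart from PCNA-AS1, the values lie between 0.208 and 23.9 FPKM.

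Promoter sequences (250 bases before to 50 bases after the start, RefSeq, GRCh38.p14) are shown for the pair of genes with the greatest rise and the pair with the greatest fall that had an entry outside coding genes, since these carry the strongest responses. Each is written along the strand of its gene, and capitals mark the searched letters on either strand: TGACGTCA (the CRE), TGANTCA (the AP-1 site), CACGTG (the E-box) and CCAAT (the CCAAT box). The windows are chr2:87455177-87455476 (plus strand) for LINC00152, chr7:153412185-153412484 (minus strand) for LINC01287, chr22:41197452-41197751 (minus strand) for EP300-AS1 and chr22:42369159-42369458 (minus strand) for LINC01315.
LINC00152: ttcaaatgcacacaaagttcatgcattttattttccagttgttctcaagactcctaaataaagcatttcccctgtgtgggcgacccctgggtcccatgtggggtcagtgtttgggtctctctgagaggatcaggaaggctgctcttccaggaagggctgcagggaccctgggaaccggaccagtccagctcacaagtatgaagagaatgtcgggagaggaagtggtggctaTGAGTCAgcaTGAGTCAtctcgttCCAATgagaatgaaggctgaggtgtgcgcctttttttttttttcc
LINC01287: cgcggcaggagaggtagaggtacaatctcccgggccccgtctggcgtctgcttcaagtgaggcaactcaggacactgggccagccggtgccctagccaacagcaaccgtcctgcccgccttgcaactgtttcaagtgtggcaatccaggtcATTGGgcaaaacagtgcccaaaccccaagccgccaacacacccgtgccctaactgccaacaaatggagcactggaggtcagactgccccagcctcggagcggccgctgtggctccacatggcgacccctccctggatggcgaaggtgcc
EP300-AS1: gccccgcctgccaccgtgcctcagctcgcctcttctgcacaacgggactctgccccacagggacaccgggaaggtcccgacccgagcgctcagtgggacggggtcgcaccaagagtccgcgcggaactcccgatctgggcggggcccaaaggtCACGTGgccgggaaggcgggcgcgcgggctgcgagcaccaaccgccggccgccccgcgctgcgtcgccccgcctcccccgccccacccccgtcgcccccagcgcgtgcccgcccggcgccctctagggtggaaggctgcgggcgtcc
LINC01315: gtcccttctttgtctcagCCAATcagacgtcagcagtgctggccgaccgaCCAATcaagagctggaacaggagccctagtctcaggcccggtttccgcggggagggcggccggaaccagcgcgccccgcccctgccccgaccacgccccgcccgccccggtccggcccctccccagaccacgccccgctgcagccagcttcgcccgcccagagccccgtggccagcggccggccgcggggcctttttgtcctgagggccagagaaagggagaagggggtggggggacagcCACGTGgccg
The LINC00152 window held TGAGTCA at 2 places, with first bases 19 and 9 bases before the start, and CCAAT after it. EP300-AS1 and LINC01315 both held CACGTG, and LINC01315 held CCAAT as well.

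Over the set, 263 members had a promoter entry, 203 by the same symbol and 60 by an older one. TGANTCA was present in 4.56% of these windows, against 7.76% of the 27305 promoters of the table. It was in 1 of 46 windows of genes called lower, 3 of 26 of those called higher and 8 of 191 of those not called. CACGTG was present in 11% of member windows and 7.43% of all, with 8 of 46 among genes called lower and 2 of 26 among those called higher. CCAAT occurred in 41.1% and 35.7%, and in 25 of 46 windows of genes called lower and 14 of 26 of those called higher. TGACGTCA was in 3.8% of member windows and 1.98% of all, with 2 of 46 among genes called lower and 0 of 26 among those called higher. The median GC content was 65% for members and 58.3% for all promoters, 70.8% in genes called lower and 62.8% in genes called higher. A match in letters describes the window only, and factor binding was not measured.

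Antisense RNAs were next set beside the gene they are named for. A partner row existed for 241 of the 245 antisense members, and for 210 the partner was tested as well. In 122 of these pairs (58.1%) both log2 fold changes had the same sign, and Pearson's r over the 210 pairs was 0.30. The pairs share the same 6 libraries. The exons of both genes overlapped in 146 tested pairs, in 45 the starts lay within 1000 bases without shared exons, and in 15 only the spans overlapped. The library kit did not mark strand, so fragments from exons that overlap on opposite strands cannot be told apart. In 43 pairs with at least 20% of the antisense exons inside partner exons the signs were the same in 72.1%, and in 104 pairs with less overlap in 52.9%.

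Most calls were made on a single side of a pair. The antisense RNA alone was called in 45 pairs, the sense gene alone in 42 and neither in 104. Both were called lower in 7 pairs and both higher in 8, and in 4 the antisense RNA was lower while the sense gene was higher. Over the 210 pairs, the antisense RNA was called lower in 41 and higher in 23, and the sense gene lower in 20 and higher in 41. Among all genes tested, 17.8% were called lower and 13.9% higher. With these uneven totals, an opposite pair with the antisense RNA lower was the likelier kind, and the counts were not tested.

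**Figure D3:**
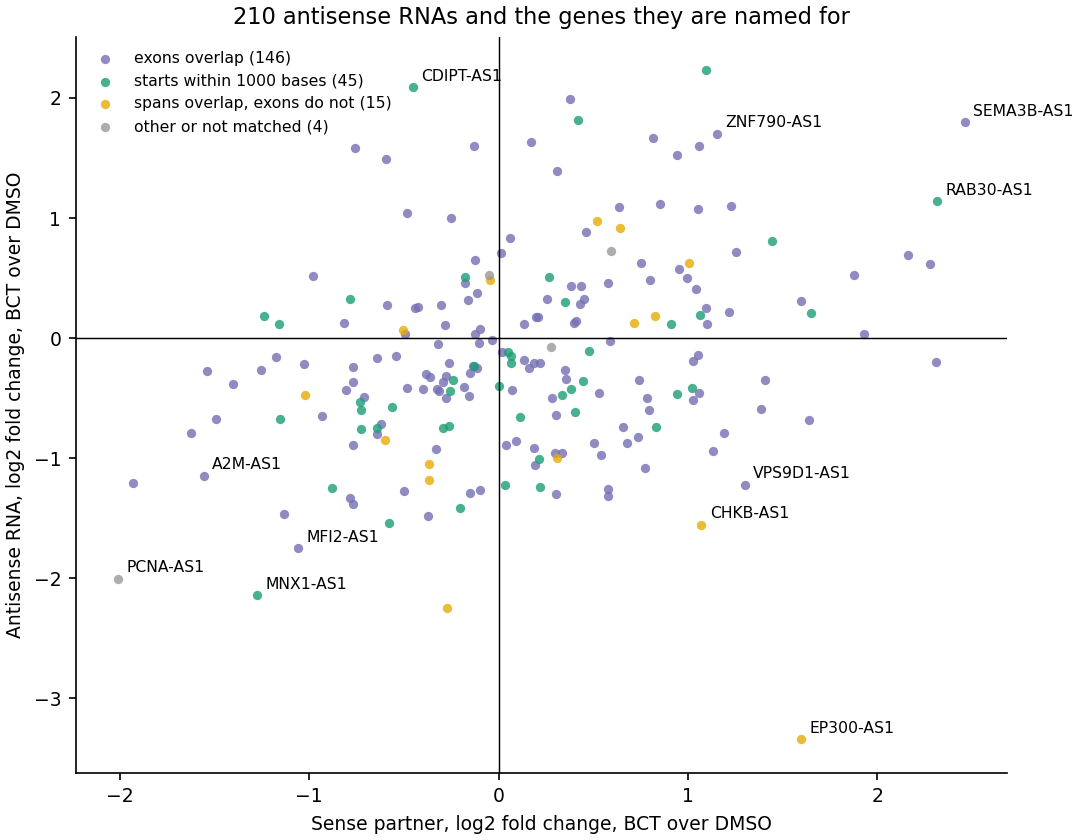
The 210 antisense RNAs with a tested partner, with the log2 fold change of the sense gene on the horizontal and of the antisense RNA on the vertical axis, coloured by how the genes lie to each other in GENCODE (number of pairs in brackets). Points spread over all quadrants, with PCNA-AS1 and MNX1-AS1 in the lower left and EP300-AS1 alone at the bottom right.

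PCNA-AS1 and PCNA, the sliding clamp of DNA replication, were the pair with the highest levels among those that fell together. PCNA-AS1 had 419, 390 and 413 FPKM with DMSO and 117, 92.5 and 96.7 FPKM with BCT, a 3.99-fold difference without overlap (log2 fold change -2.00, SE 0.09; limma, adjusted p = 6.5e-07). PCNA had 325, 304 and 301 FPKM with DMSO and 84.7, 70.7 and 75.9 FPKM with BCT (log2 fold change -2.01, SE 0.07; limma, adjusted p = 3.3e-07). The level of the antisense RNA was 1.32 times that of PCNA in DMSO and BCT alike. In RefSeq (GRCh38.p14) the antisense gene covers 384 bases (chr20:5119586-5119969) inside the span of PCNA (chr20:5114953-5126622), and in the deposited annotation both carry the same span. The values of the 2 genes may hold the same fragments, and this was not tested.

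Another pair that fell together was MNX1-AS1 and the homeobox gene MNX1, whose starts lie 142 bases apart with no shared exon. MNX1-AS1 had 3.44, 2.80 and 3.92 FPKM with DMSO and 1.14, 0.412 and 0.657 FPKM with BCT. MNX1 went from 3.74 ± 0.28 to 1.51 ± 0.32 FPKM, and its log2 fold change was -1.27 against -2.14 for the antisense RNA. MFI2-AS1 fell 3.79-fold while MFI2, the melanotransferrin gene, fell from 2.67 ± 0.25 to 1.23 ± 0.10 FPKM, but 44.9% of its exonic bases lie in MFI2 exons. A2M-AS1 and the protease inhibitor gene A2M fell with log2 fold changes of -1.14 and -1.56, and 19% of the antisense exonic bases lie in A2M exons. The pairs of RUSC1 and ST3GAL4 fell as well.

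Pairs that rose together included SEMA3B-AS1 and SEMA3B, a secreted semaphorin. SEMA3B-AS1 went from 0.945, 1.25 and 0.896 FPKM to 3.54, 4.65 and 3.34 FPKM and SEMA3B from 2.77 ± 0.27 to 15.7 ± 1.1 FPKM, with 1.29% of the antisense exons in SEMA3B exons. RAB30-AS1 had 12.2, 12.3 and 12.5 FPKM with DMSO and 26.5, 29.3 and 26.2 FPKM with BCT, well apart. It stood 10.0-fold above its neighbour RAB30, a small GTPase gene of the Golgi, with DMSO, and 4.14-fold above it with BCT, since RAB30 rose more (1.24 ± 0.03 to 6.61 ± 1.05 FPKM). ZNF790-AS1 rose 3.31-fold to 10.6 ± 0.8 FPKM and the zinc finger gene ZNF790 from 2.14 ± 0.12 to 4.87 ± 0.29 FPKM. ATE1-AS1 rose 3.14-fold beside the arginyltransferase gene ATE1, with log2 fold changes of 1.60 and 1.06, but 20.8% of its exonic bases lie in ATE1 exons. SAPCD1-AS1 rose 2.88-fold beside SAPCD1, but 71.8% of its exonic bases lie in SAPCD1 exons and the deposited annotation places it on an alternative haplotype of chromosome 6. The remaining pairs that rose were those of SNRK, ST20 and ADNP.

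In the 4 pairs called in opposite directions the antisense RNA was the lower. EP300 rose from 9.47, 12.3 and 12.2 FPKM to 29.8, 35.3 and 38.3 FPKM (log2 fold change 1.60, SE 0.12; limma, adjusted p = 5.8e-06), so the level of EP300-AS1 relative to EP300 went from 0.584 to 0.0165. CHKB-AS1 had 8.04, 7.77 and 7.78 FPKM with DMSO and 3.66, 2.06 and 2.36 FPKM with BCT, whereas CHKB, a choline kinase gene, rose from 9.11 ± 0.85 to 19.3 ± 2.1 FPKM. The spans of CHKB-AS1 and CHKB overlap, but their exons do not. VPS9D1-AS1 had 26.0, 26.9 and 25.5 FPKM with DMSO and 15.5, 9.44 and 9.55 FPKM with BCT, and VPS9D1 rose from 4.06 ± 0.29 to 10.1 ± 0.5 FPKM, although 29.6% of the antisense exons lie in VPS9D1 exons. With equal FPKM sums the calls of CHKB-AS1 (log2 difference -0.80) and VPS9D1-AS1 (-0.46) were lost, the latter also without MIR6087 (-0.836).

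**Figure D4:**
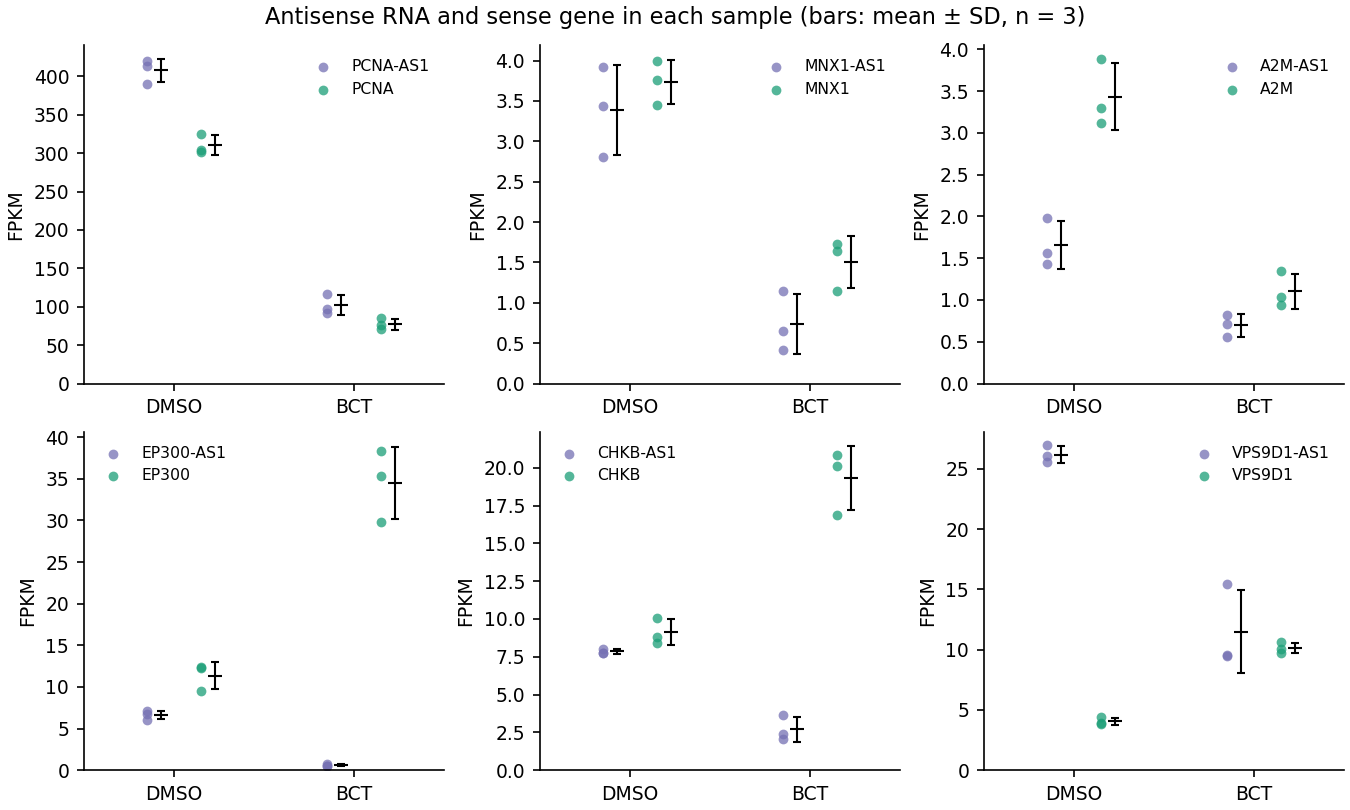
FPKM of the antisense RNA (violet) and its sense gene (green) in each sample for 6 pairs, with black bars for the mean ± SD (n = 3). PCNA, MNX1 and A2M fell together with their antisense RNAs, and EP300, CHKB and VPS9D1 rose while theirs fell.

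Intergenic genes were set beside the nearest tested coding gene. It could be found for 89 LINC genes, at a median distance of 19519 bases, with 18 overlapping it. Both had the same sign in 59 of the 89, and whether this differs from unrelated genes was not tested. Of the 24 called LINC genes among them, 21 had a nearest gene that was not called. Most genes were not called in any case, with 17.8% of all genes tested called lower and 13.9% higher. LINC01003 fell while KMT2C, a histone methyltransferase gene 27142 bases away, rose from 6.41 ± 0.39 to 14.5 ± 1.7 FPKM. LINC00491 rose while PAM, a peptide-amidating enzyme gene, fell from 2.76 ± 0.10 to 1.04 ± 0.07 FPKM. KRCC1 rose with LINC00152, but at a distance of 390465 bases.

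Apart from PCNA-AS1, the 6 members with the highest levels were not called. LRRC75A-AS1, the snoRNA host gene SNHG29, had 1109, 896 and 1038 FPKM with DMSO and 616, 637 and 611 FPKM with BCT. The groups did not overlap, but the log2 difference of -0.70 was under the threshold (SE 0.08; limma, adjusted p = 4.8e-05). Its span also holds small nucleolar RNA genes, which lie in its introns. LINC00493, LINC00998, LINC01420 and LINC00467 had 58.8 to 85.0 FPKM with BCT and log2 differences of 0.25, -0.28, -0.36 and -0.08, none of them called. Among the 61 members of at least 10 FPKM, 9 were called lower (14.8%, against 17.8% of all genes tested) and 2 higher (3.28%, against 13.9%). Besides PCNA-AS1, those called lower included FGD5-AS1 (81.3 ± 2.3 to 34.0 ± 3.2 FPKM), ELFN1-AS1 (34.3 ± 1.4 to 12.9 ± 3.8 FPKM) and LINC00957 (29.5 ± 0.7 to 11.1 ± 2.9 FPKM), named after their values were seen.

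Some symbols of these kinds belong to genes since found to encode small proteins. GENCODE lists 13 members as protein coding, though HNRNPU-AS1 is among them only because an older symbol led to the coding gene HNRNPU. Of the 13, 2 were called lower (15.4%, against 17.8% of all genes tested) and 1 higher (7.69%, against 13.9%). NCBP2-AS2 had 40.8, 39.8 and 41.9 FPKM with DMSO and 24.2, 19.1 and 18.2 FPKM with BCT, and MMP24-AS1 35.5, 33.3 and 37.4 FPKM against 17.5, 14.2 and 12.4 FPKM. LINC01207 (SMIM31) rose from 0.591 ± 0.047 to 2.12 ± 0.19 FPKM. The genes for mitoregulin (LINC00116), SMIM26 (LINC00493), SMIM30 (LINC00998) and the decapping-complex microprotein NBDY (LINC01420) were not called, with log2 differences of 0.57, 0.25, -0.28 and -0.36. Apart from LINC00493, LINC00998 and LINC01420, these genes were named after their values were seen.

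Position in the genome was compared with the calls. In GENCODE, 330 members were matched, 256 by the same symbol and 74 by an older one. Exons of 195 members overlapped exons of coding genes, of which 30 were called lower and 22 higher, and 135 members had no such overlap, of which 26 were called lower and 16 higher. A start within 1000 bases of a coding gene's start on the other strand was found for 145 members, of which 24 were called lower and 13 higher. In the deposited annotation 172 members carried a span shared with a coding gene (33 lower, 18 higher) and 154 a span shared with no gene (23 lower, 20 higher). Over these groups, the shares called lower ranged from 14.9% to 19.3% (17.8% of all genes tested) and the shares called higher from 8.97% to 13% (13.9% of all genes tested), the lowest being that of members starting near a coding start.

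Long noncoding RNAs known in prostate cancer were followed through a list of 19 symbols. Of these, 15 were in the files and 6 were tested, with a median log2 fold change of 0.62 against -0.04 over all genes tested. Among the listed genes too low to be tested, PCAT1 (0.210 to 0.025 FPKM) and PCA3 (0.039 to 0.009 FPKM) were lower with BCT without overlap. SOCS2-AS1 (0.070 to 0.248 FPKM) was higher without overlap. CBR3-AS1, described as raised in prostate tumors, rose from 1.99, 1.98 and 2.19 FPKM to 6.06, 6.80 and 6.18 FPKM, without overlap (log2 fold change 1.58, SE 0.08; limma, adjusted p = 1.1e-06). CBR3, the carbonyl reductase gene opposite to it, had 12.6 ± 0.8 FPKM with DMSO and 7.48 ± 1.09 FPKM with BCT and was not called. PCAT7, which is outside the naming pattern, rose from 4.48 ± 0.46 to 9.89 ± 2.32 FPKM. TMPO-AS1, opposite a nuclear lamina protein gene, fell from 2.29 ± 0.16 to 0.861 ± 0.167 FPKM, and TMPO itself had 183 ± 6 and 106 ± 5 FPKM, a log2 difference of -0.79 that was not called. LINC00963 (15.1 ± 0.6 and 23.8 ± 0.4 FPKM), DRAIC (5.83 ± 0.50 and 5.15 ± 0.87 FPKM) and PCAT29 (0.790 ± 0.113 and 1.26 ± 0.31 FPKM) were not called.

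A list of 21 antisense and LINC RNAs that have been studied in cells or tumors had 10 tested genes, all of them members. Of these, 4 were called lower and 1, LINC00152, higher, with a median log2 fold change of -0.33. Over all genes tested, 17.8% were called lower and 13.9% higher, and the median was -0.04. OIP5-AS1, a conserved RNA also known as Cyrano, fell from 61.7, 61.8 and 60.8 FPKM to 26.1, 21.4 and 23.1 FPKM (log2 fold change -1.39, SE 0.07; limma, adjusted p = 1.1e-06). MCM3AP-AS1 fell from 2.73 ± 0.21 to 1.03 ± 0.09 FPKM and GATA3-AS1 from 3.44 ± 0.31 to 1.63 ± 0.30 FPKM, beside the decrease of FOXP4-AS1. The call of GATA3-AS1 was lost with a pseudocount of 1 (log2 difference -0.76) and under both scalings to equal sums (-0.31, and -0.68 without MIR6087). Those of OIP5-AS1 (-0.62) and MCM3AP-AS1 (-0.60) were lost as well when FPKM sums were set equal. LINC00467, LINC00665, ZEB1-AS1, EPB41L4A-AS1 and HIF1A-AS2 were not called, with log2 differences from -0.58 to 0.53. EPB41L4A-AS1 holds the small nucleolar RNA gene SNORA13, and 51.3% of its exonic bases lie in exons of EPB41L4A.

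RNAs linked to p53 were read from a list of 7, of which 3 were tested, with a median log2 fold change of 0.02 against -0.04 over all genes tested. LINC00657, known as NORAD, an abundant RNA that binds Pumilio proteins, had 74.4, 76.5 and 73.3 FPKM with DMSO and 48.6, 45.6 and 51.0 FPKM with BCT, a log2 difference of -0.63 under the threshold. TP53TG1 had 75.3 ± 5.7 and 76.5 ± 5.2 FPKM. NEAT1, the scaffold of paraspeckles, rose from 26.1 ± 4.8 to 58.0 ± 9.7 FPKM.

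For comparison, 20 long noncoding RNAs outside the naming pattern were listed, of which 12 were tested. Of these 12, 3 were called lower and 2 higher, beside 17.8% and 13.9% of all genes tested. Their median log2 fold change was -0.08, against -0.04 over all genes tested. H19 fell 4.73-fold from 2.81 ± 0.34 FPKM, DANCR 3.34-fold from 128 ± 7 FPKM, and RMRP, the RNA of a ribonuclease that processes ribosomal RNA, 2.65-fold from 31.6 ± 2.7 FPKM. HOTAIRM1 of the HOXA cluster rose 2.47-fold from 1.96 ± 0.17 FPKM, beside NEAT1. MALAT1, TUG1 and CRNDE were not called, with log2 differences of 0.27, 0.09 and -0.27.

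**Figure D5:**
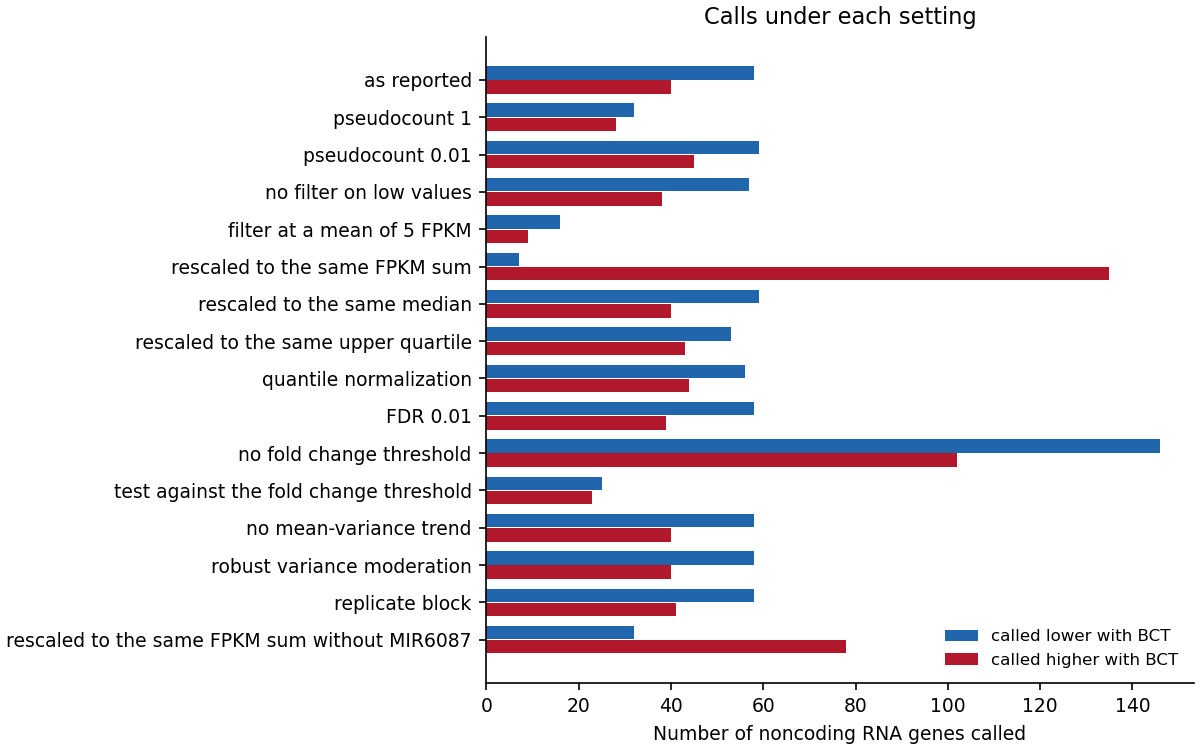
Number of the noncoding RNA genes called lower (blue) and higher (red) with BCT under each setting of the analysis. Bars start at 0. The deposited scale gave 58 lower and 40 higher, and the scaling to the same FPKM sum 7 lower and 135 higher.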

How the data were processed

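RNA was taken from 22RV1 cells after 24 h with DMSO or 10 nM BCT (n = 3 each). The TruSeq RNA Library Prep Kit v2 does not mark strand. Per the labels, the authors' processing notes name CASAVA, Trimmomatic 0.38, HISAT2 and HTSeq with hg19, and their methods name StringTie. The gene annotation is not given in the sources used here. The deposited values are FPKM per gene and sample, made by the authors and given without counts. Their methods state an average number of reads, and the depth of each sample is not given in the sources used here. Deposited spans of noncoding genes often cover a whole locus and lack a strand. Positions, strands and exons were therefore taken from GENCODE lifted to GRCh37, matched by symbol or a unique older symbol overlapping the deposited span (330 of 342 members).

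The 12729 genes whose mean reached 1 FPKM were fitted with limma 3.58.1 in R 4.3.3 on log2(FPKM + 0.1), using a trended prior variance and adjusting p by Benjamini-Hochberg over all of them. Calls needed a log2 fold change past 0.85 in size and an adjusted p under 0.05. The fit was tested on simulated data. Members and lists were chosen with earlier results of these data known. Named members were the 10 called higher and the 10 called lower with the greatest change and no overlap, the 6 highest, members of the lists, antisense genes called opposite to their partner, the 5 pairs of each shared direction with the greatest summed change, and the 3 at each side of the level threshold. Others are marked as named after their values were seen. Pairs, nearest genes and promoter letters are descriptions. A few named items are not reported here. Alternatives were other pseudocounts (0.01 and 1), no filter or one at 5 FPKM, 5 other scalings, other thresholds and variance models, a replicate block, members without overlapping genes, and leaving out each sample. The scaling without MIR6087 and the restriction to members with no exon in coding exons were added after seeing the data.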

Additional observations from a re-analysis of the deposited data

How the results depend on the processing

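Rescaling to the same FPKM sum gave 7 members lower and 135 higher (all genes 668 and 5614), and without MIR6087 32 and 78 (all genes 1208 and 3370). Pseudocount 1 gave 32 lower and 28 higher (all genes 1848 and 1402), and 9 antisense pairs called in the same direction in place of 15. A filter at 5 FPKM, which tested fewer genes and kept 117 members, gave 16 lower and 9 higher (all genes 1577 and 1150). Without the fold change threshold 146 were lower and 102 higher (all genes 5453 and 4997), and with a test against that threshold 25 and 23 (all genes 1392 and 1033). Among members whose deposited span overlaps no other deposited gene 23 were lower and 20 higher, and among those with no exon in coding exons 26 and 16. Leaving out each sample in turn gave 55 to 64 lower and 37 to 44 higher (all genes 2146 to 2488 and 1684 to 1932). The FDR of 0.01, both variance models, pseudocount 0.01, no filter and the median, upper quartile and quantile scalings kept both counts within 1.5 times.

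With a replicate block, 58 were lower and 41 higher (all genes 2266 and 1767). Between DMSO and BCT samples, the correlation used to look for pairing was 0.116, 0.033 and 0.034 for the same number. For different numbers it lay between -0.115 and 0.074. These values, some of them negative, are not correlations of the FPKM levels themselves. The numbers were not taken to pair the samples.

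The sign turned with equal FPKM sums for LRRC75A-AS1 (log2 difference 0.067), LINC00998 (0.489), LINC01420 (0.409), LINC00467 (0.683), LINC00657 (0.140), LINC00665 (0.189) and RTCA-AS1 (0.302), without MIR6087 for LINC00998 (0.108), LINC01420 (0.027) and LINC00467 (0.302), and by quantiles for LINC00467 (0.062), none of which was called. INTS6-AS1 (0.03) ranged from -0.228 to 0.228 when 1 sample was left out. The calls of TMPO-AS1 (-0.826), GATA3-AS1 (-0.760), A2M-AS1 (-0.645) and ADNP-AS1 (0.603) were among those lost with pseudocount 1, and those of GATA3-AS1, A2M-AS1, ADNP-AS1 and VPS9D1-AS1 in the test against the fold change threshold. Of 941 results for the 46 named members, 881 were unchanged in direction and call, 30 lost the call, 16 gained it and 14 turned sign. Changes of FDR, fold change threshold, variance model or replicate block leave the fold change itself as it was, so the sign could not turn there. Many named members were also chosen for great changes, so the tally does not measure how firm the results are. Beyond the settings' own construction, the cause of the lost, gained and turned results was not tested. Without read counts, the counting error of members near 1 FPKM could not be given.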

Other observations

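Of the 11 antisense members named for zinc finger genes with ZNF symbols, 3 were called higher with BCT (27.3%, against 13.9% of all genes tested). All 3 lie in the same stretch of chromosome 19 (GRCh37). The median log2 fold change of the 11 was -0.21, with 6 of them negative. These were ZNF529-AS1 (chr19:37063972-37085614, 2.33 ± 0.54 to 5.02 ± 0.45 FPKM), ZNF790-AS1 (chr19:37288403-37322498, 3.20 ± 0.46 to 10.6 ± 0.8 FPKM) and ZNF793-AS1 (chr19:37988061-37998024, 4.33 ± 0.38 to 11.5 ± 0.6 FPKM; SD, n = 3). A window from 500000 bases before the first to 500000 bases after the last of these genes was chosen after their values were seen. In it, 25 other tested genes had ZNF symbols, and 13 of these were called higher by limma, against 13.9% of all genes tested. Of all 42 genes tested in the window 16 were called higher, namely these 13 and the 3 antisense members that placed the window. None of the 25 was called lower, and 1 had a negative change at an unadjusted p under 0.05. Their median log2 fold change was 0.855, while that of the 7 members in the window was 0.21, with 5 of the 7 positive. ZNF790 was called higher together with its antisense RNA, whereas ZNF529 (log2 difference 0.64) and ZNF793 (0.31) were not called. Many zinc finger genes of this stretch have similar sequences, and how the authors' counting divided fragments between them is not given in the sources used here.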
